A study of Mus musculus with 2 samples.

Results

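Myeloid cells, the leukocyte family that holds macrophages, dendritic cells, monocytes and neutrophils, were picked from single-cell RNA sequencing of mouse cornea and limbus by a transcript rule. A barcode was kept when it held at least 500 genes and 1000 UMIs (unique molecular identifiers, each standing for 1 captured transcript) and at most 20% mitochondrial UMIs. A kept cell was called myeloid when it held at least 1 UMI of Ptprc, which encodes the pan-leukocyte antigen CD45, and at least 5 UMIs of Tyrobp, Fcer1g, Lyz2, C1qa and Cd74 together. It also had to hold fewer than 30 UMIs of Krt5, Krt14 and Krt15 and fewer than 50 of Dcn, Lum and Kera per 10000 of its own UMIs, which left out epithelial and stromal cells. The rule took 101 of 19696 kept cells: 21 of 10154 in the wild-type library and 80 of 9542 in the Pax6 +/- library.

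The tissue was the front of the eye without lens, retina, iris, trabecular network and most of the conjunctiva. It was digested with 0.7 mg/mL liberase at 37 °C for 1 h and then with 0.25% trypsin for 15 min, and passed through a 40 µm filter. Wild-type mice were compared with mice labelled Pax6 +/-, heterozygous for the paired-box transcription factor that directs eye development and corneal differentiation. The strain, the Pax6 allele, the age and the sex of the mice are not given in the sources used here. The study's text names 2 mice of each genotype, but each genotype has 1 library and no map from cells to mice, so each genotype is 1 sample. Cells are not replicates: no p-value is given, and every interval covers counting error only. In the Pax6 +/- library, 26 myeloid cells held Xist but no Y-linked transcript and 32 the reverse, so both sexes were present, whereas 18 of the wild-type cells held Xist and 0 held a Y-linked UMI. Sex and genotype therefore cannot be told apart beyond the Xist-only cells.

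Macrophages engulf debris, hold the complement component C1q and secrete chemokines, small proteins that draw other leukocytes. Dendritic cells take up antigen, display it on MHC class II molecules and, once mature, travel along lymphatic vessels to lymph nodes under the receptor CCR7. In the healthy cornea both kinds sit in the stroma and, near the limbus, within the epithelium, where cells with Langerhans features carry the lectin langerin, the product of Cd207. C1q itself is assembled from the products of C1qa, C1qb and C1qc, which lie side by side on chromosome 4, at 136895917-136898803, 136880129-136886187 and 136889804-136893065, all on the minus strand of GRCm38.

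The sequences just upstream of 3 genes that separate the cells described here are shown because C1qb was detected together with C1qa and C1qc in every cell that held any of them, and because Cd207 and the elastase gene Mmp12 marked a small group of cells found in both libraries. Each run is 250 bases that end at the base before the RefSeq transcript start, in transcript direction, from the GRCm38.p6 build. Capitals mark GAGGAA, a core of the motif bound by the myeloid factor PU.1, or TGAGTCA, bound by AP-1 factors, on either strand. Both were searched without allowing any mismatch, as was the C/EBP palindrome TTGCGCAA.
C1qb upstream, chr4:136886201-136886450, minus strand: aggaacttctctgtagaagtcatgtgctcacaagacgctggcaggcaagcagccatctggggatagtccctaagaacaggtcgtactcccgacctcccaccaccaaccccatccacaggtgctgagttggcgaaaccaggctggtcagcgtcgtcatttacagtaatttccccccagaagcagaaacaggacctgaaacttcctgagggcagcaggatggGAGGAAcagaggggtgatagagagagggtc
Cd207 upstream, chr6:83677858-83678107, minus strand: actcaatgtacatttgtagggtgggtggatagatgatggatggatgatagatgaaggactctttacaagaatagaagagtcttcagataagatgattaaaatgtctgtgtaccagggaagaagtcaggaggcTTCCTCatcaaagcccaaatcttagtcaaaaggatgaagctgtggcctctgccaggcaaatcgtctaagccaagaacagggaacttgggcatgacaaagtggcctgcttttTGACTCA
Mmp12 upstream, first annotated start, chr9:7344147-7344396, plus strand: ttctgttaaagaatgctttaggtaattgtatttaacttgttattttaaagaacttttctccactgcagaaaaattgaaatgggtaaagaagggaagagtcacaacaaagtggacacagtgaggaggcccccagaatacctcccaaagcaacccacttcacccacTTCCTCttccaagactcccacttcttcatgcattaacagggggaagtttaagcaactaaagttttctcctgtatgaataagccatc
The C1qb window held 1 PU.1 core, which begins 30 bases before the start, and the Mmp12 window held 1 that begins at 86 bases. Cd207 held 1 PU.1 core at 118 bases and 1 AP-1 match at 7 bases. Of the windows examined but not printed, that of C1qc held 1 PU.1 core at 193 bases, the second annotated Mmp12 start held 0 PU.1 cores and 1 AP-1 match at 44 bases, and that of Fcer1g held 0 of any motif. Of 27025 RefSeq promoters cut to the same 250 bases, 23.1% held GAGGAA, 4.43% held TGAGTCA and 0.170% held TTGCGCAA, which was in none of the 3 windows shown. A match is a description of the letters, not a site.

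The genes that chose the cells were all abundant in them, which the rule ensures. Levels are CPM, the UMIs of a gene summed over cells and scaled to the usual common total, without mitochondrial genes. C1qa stood at 2932 CPM in wild-type and 4836 CPM in Pax6 +/- myeloid cells. Cd74, the invariant chain that guides class II molecules, stood at 8070 and 15283 CPM. Lyz2, the lysozyme of macrophages and granulocytes, stood at 3549 and 5713 CPM. Tyrobp, the signalling adaptor DAP12, stood at 1062 and 1223 CPM, and its partner adaptor Fcer1g at 1861 and 1300 CPM. Tyrobp was in all 21 wild-type and 77 of 80 Pax6 +/- cells. Cd74 ran from 0 to 309 and from 0 to 493 UMIs per 10000.

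**Figure D1:**
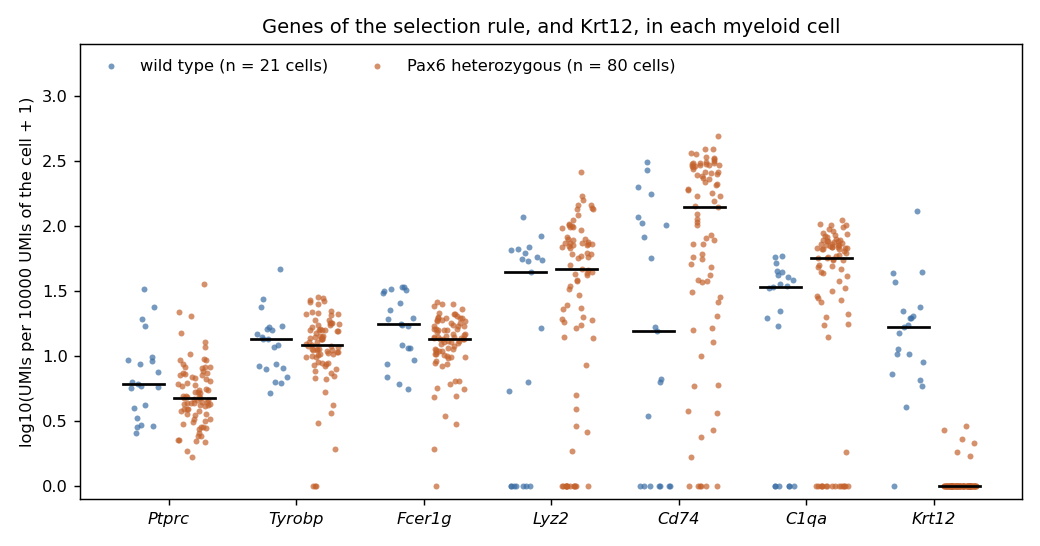
UMIs per 10000 of each cell's own UMIs, on a log10 scale after adding 1, for the 6 genes of the selection rule and for the corneal keratin Krt12. Each point is 1 myeloid cell (21 wild type, 80 Pax6 heterozygous) and each bar is the median. C1qa, Lyz2 and Cd74 were at 0 in some cells of both libraries, Cd74 and Lyz2 with graded levels above that, and Krt12 was present in 20 of 21 wild-type cells but in 6 of 80 Pax6 heterozygous cells.

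The macrophage part of the label was checked against defining markers that the rule did not use. Csf1r, the receptor for the macrophage growth factor CSF1, stood at 554 and 470 CPM in wild-type and Pax6 +/- myeloid cells, and Adgre1, the macrophage antigen F4/80, at 381 and 454 CPM. In the other non-epithelial cells Csf1r stood at 1.79 and 4.51 CPM, and Adgre1 at 0 UMIs and 0.359 CPM. Lyve1, a resident-macrophage marker, was at least 4-fold below those cells in Pax6 +/-. For the dendritic part, 5 of 6 tested genes of a type 2 dendritic list were at least 4-fold above those cells in each library. They were Cd209a, Sirpa, Clec10a, Mgl2 and Itgam. In wild type and Pax6 +/- the counts were 1 of 2 and 0 of 2 for a type 1 list. They were 1 of 1 (Id2) and 0 of 1 for a conventional list, and 1 of 1 (Relb) and 1 of 4 (Ccr7) for a mature migratory list. Across the C1qa split below, Id2 was higher with C1qa in both libraries and Relb in wild type. Ccr7 was lower with C1qa in Pax6 +/-. In wild type Clec10a was in 5 cells with C1qa and 0 without, Mgl2 in 12 and 2, and Cd209a in 0 and 2. These list counts therefore do not tell dendritic cells from macrophages. Of the rule's own genes, which check nothing, C1qa was at or near 0 in the other non-epithelial cells, a set of 816 wild-type and 1996 Pax6 +/- endothelial, mural, Schwann, T or NK cells and keratocytes or fibroblasts, where it stood at 0.488 and 5.85 CPM. C1qa was in 0 of 78 endothelial, 0 of 53 mural and 0 of 70 Schwann cells of the wild-type library, against 15 of 21 myeloid cells, at median depths of 4896, 3827, 2615 and 5106 UMIs. Lyz2 was less selective, since Schwann cells held it at 419 and 433 CPM. Markers of T cells were nearly absent: Cd3e was in 1 of 101 cells. Il7r, listed among lymphoid markers and also known from activated dendritic cells, was in 36 Pax6 +/- cells and 2 wild-type cells. At least 3 UMIs of mural markers were found in 3 Pax6 +/- cells, of endothelial markers in 3, of Schwann markers in 7 and of T or NK markers in 26, of which 2 held no Il7r. In the wild-type library these numbers were 1, 0, 0 and 1.

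Pax6 itself gave 7 UMIs in the wild-type and 5 in the Pax6 +/- myeloid cells. It stood at 372 and 743 CPM in the kept cells with at least 30 UMIs of Krt5, Krt14 and Krt15 per 10000. Since the allele is not given, these 3′ counts do not check the genotype label.

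Epithelial RNA differed between the libraries. Krt12, the keratin of corneal epithelium, stood at 3232 CPM in wild-type and 9.53 CPM in Pax6 +/- myeloid cells. The summed level of 11 corneal epithelial genes was 6055 and 354 CPM. In the kept cells with at least 30 UMIs of Krt5, Krt14 and Krt15 per 10000 it was 68528 and 27842 CPM. Wild-type endothelial, mural and Schwann cells all held Krt12, in 78 of 78, 53 of 53 and 70 of 70 cells, so its presence was not particular to myeloid cells. Its level was at least 4-fold higher in wild-type myeloid cells than in the other non-epithelial cells. The latter were limited to under 100 Krt12 UMIs per 10000, and myeloid cells were not. 1 wild-type cell alone, at 16894 UMIs the deepest, carried 61.8% of the Krt12 UMIs and nearly all those of Ypel2 (98.8%). No doublet caller was run, and results that rest on this cell are given with the share it carries.

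Few cells lay near the limit on the rule genes, and many near that on Ptprc. With the 5 genes summing to 5 to 7 UMIs, just inside, there were 2 wild-type and 2 Pax6 +/- cells. With 3 to 4, just outside, there were 0 and 2. Another 20 and 83 cells met everything but the single Ptprc UMI, a gene detected at a median of 5.12 and 3.74 UMIs per 10000. Without that demand the shares would be 0.404% of wild-type and 1.71% of Pax6 +/- kept cells. The libraries shared 40 cell barcodes, and none of the cells carrying them was a member.

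Myeloid cells were a larger share of the Pax6 +/- library. They made up 0.838% of its kept cells (95% Clopper-Pearson interval 0.665% to 1.04%) and 0.207% of the wild-type cells (0.128% to 0.316%). Non-epithelial cells of other kinds were also more frequent there, so the share among non-epithelial cells was closer: 3.85% (3.07% to 4.77%) against 2.51% (1.56% to 3.81%), and these intervals overlap. Among kept cells that held Xist alone, without Y-linked transcripts, the shares were 0.590% (26 of 4409) in Pax6 +/- and 0.187% (18 of 9603) in wild type. With 1 dissection and dissociation per library, a difference in the tissue and a difference in recovery cannot be told apart.

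Against the other non-epithelial cells, myeloid cells of both libraries held leukocyte genes and lacked stromal ones. The rule used this contrast, so the counts describe and support nothing. Of 2573 genes with at least 100 CPM in either set, 529 (20.6% of those tested) were at least 4-fold higher in wild-type myeloid cells and 396 (15.4%) at least 4-fold lower. In the Pax6 +/- library, of 2640 genes, 414 (15.7%) were higher and 497 (18.8%) lower. The lists of higher genes shared 287 genes, 69.3% of the Pax6 +/- list and 54.3% of the wild-type list.

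Genes of antigen presentation, C1q and inflammatory signalling were among those higher. All 11 tested genes of a macrophage core list were higher in both libraries (median log2 ratio 8.80 and 7.65, against 0.25 and 0.05 over all genes tested). Of the class II presentation list, 9 of 9 and 9 of 10 were higher. These lists hold C1qa and Cd74, which the rule used. H2-Aa, a chain of the I-A molecule, stood at 7580 CPM in wild-type myeloid cells against 3.42 CPM in the other cells, and at 9573 against 26.7 CPM in Pax6 +/-. Spi1, which encodes PU.1, stood at 472 against 0.325 CPM and at 564 against 1.18 CPM.

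Chemokines and cytokines were among the most selective transcripts. Il1b, the pro-inflammatory interleukin, stood at 3486 CPM in wild-type and 2811 CPM in Pax6 +/- myeloid cells, and at 0.163 and 2.72 CPM in the other cells. Ccl4, a chemokine of activated macrophages, stood at 2206 and 1200 CPM, with 0 UMIs in the other wild-type cells and 0.667 CPM in the other Pax6 +/- cells. Of the chemokine list, 12 of 13 tested genes were higher in wild type and 10 of 13 in Pax6 +/-. Ccl2, which draws monocytes, was 34.9-fold above the other cells in wild type but 2.74-fold above them in Pax6 +/-, where mural cells held it at 2593 CPM. Interferon-response genes did not stand out, with 0 of 4 and 0 of 8 tested past 4-fold in either direction. Of the immediate early and dissociation stress genes, 2 of 14 were 4-fold higher in wild type (Hspa1a and Dusp1). In Pax6 +/- 0 of 14 were higher and 1, Hspa1b, was lower.

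Stromal genes, which the rule's limit on Dcn, Lum and Kera bears on, and endothelial genes were among the lowest. Angptl7, a secreted protein of keratocytes, stood at 9.08 CPM in wild-type myeloid cells against 5204 CPM in the other cells. The collagen-binding gene Sparc stood at 36.3 against 11185 CPM. In Pax6 +/- the lowest ratios were those of Ccl21a, a lymphatic chemokine (3.18 against 1329 CPM), and Tm4sf1, both highest in endothelial cells.

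C1q divided the myeloid cells cleanly. C1qa was present in 15 of 21 wild-type cells (71.4%, 47.8% to 88.7%) and 65 of 80 Pax6 +/- cells (81.2%, 71.0% to 89.1%). The intervals overlap, and with each cell thinned to 2000 UMIs the shares were 83.3% of 18 and 80.8% of 78 cells, after 3 and 2 shallower cells were left out. Every one of these 80 cells also held C1qb and C1qc, and none of the other 21 held any of the 3. The split was rarely a matter of 1 UMI: 76 of the 80 held at least 10 C1qa UMIs, and 1 held exactly 1. Within the C1qa cells the level per 10000 UMIs reached 57.3 in wild type (median 37.5) and ran from 0.807 to 110 in Pax6 +/- (median 66.0).

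Summed over cells, those with C1q held macrophage genes at higher levels, and those without carried dendritic, monocyte, neutrophil or lymphoid genes in varying mixtures. The cells with C1qa were not uniform: 12 lay in the dendritic-like cluster 2 and 13 in cluster 4, both described below. The split was made on the same myeloid cells, so its counts are a description. In the Pax6 +/- library, with 65 cells against 15, 382 of 2298 genes (16.6%) were at least 2-fold higher with C1qa and 388 (16.9%) at least 2-fold lower, 33.5% in all. In wild type, with 15 cells against 6, 615 of 2498 genes (24.6%) were higher and 473 (18.9%) lower, 43.6% in all. Single cells carry many of these calls: when, for each gene, the cell with most of its UMIs in the higher part was left out, the lower counts were 137 in Pax6 +/- and 185 in wild type, and the higher counts 315 and 385. Of the Pax6 +/- calls that reached 100 CPM in wild type, 153 of 310 higher genes and 67 of 168 lower genes were past 2-fold the same way there. The C1qa-negative wild-type cells were also shallow, at a median of 2065 UMIs against 5336.

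The macrophage core list was higher with C1qa in 11 of 11 tested genes in Pax6 +/- (median log2 ratio 2.48, against -0.15 over all tested) and in 10 of 11 in wild type. C1qa, which makes the split, and C1qb and C1qc, which were detected in the same cells, are 3 of these genes and had to be higher. Csf1r stood at 542 CPM with C1qa and 136 CPM without it in Pax6 +/-, and at 656 and 98.9 CPM in wild type. Apoe, the lipid-carrier apolipoprotein, was in 49 of 65 cells with C1qa and 3 of 15 without, at 6217 and 126 CPM (ratio 49.2, with a lower interval bound of 29.3). In wild type it stood at 8450 CPM with C1qa and was not detected without it. Pf4, a platelet-type chemokine of tissue macrophages, stood at 1716 CPM with C1qa and at 0 UMIs without it in Pax6 +/-, at least 63.3-fold higher when the 0 is taken as 3 UMIs, and at 2302 CPM and 0 UMIs in wild type. Most genes of resident macrophages followed: in Pax6 +/- 9 of 10 tested were higher and 1, Timd4, was lower, and in wild type 7 of 9 were higher. Selenop, a selenium carrier, stood at 1388 and 63.2 CPM in Pax6 +/-, and Mrc1, the mannose receptor, at 1155 and 434 CPM.

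Chemokines that draw monocytes and neutrophils went with C1q. In Pax6 +/-, 9 of 13 tested chemokines were higher with C1qa and 2 were lower, and in wild type 10 were higher and 1 lower. Ccl7 stood at 2211 CPM with C1qa and at 0 UMIs without it in Pax6 +/-, and at 4848 CPM and 0 UMIs in wild type. Ccl4 stood at 1432 and 108 CPM, and Cxcl2, which draws neutrophils, at 3719 and 876 CPM. Ccl5 went the other way, at 27.0 and 569 CPM in Pax6 +/-. Il1b was less than 2-fold apart in Pax6 +/-, at 2822 and 2755 CPM. Of a list of immediate early and dissociation stress genes, 10 of 13 tested were higher with C1qa in Pax6 +/-, against 16.6% of all genes tested. In wild type 4 of 14 were higher, near the 24.6% of all genes tested, and 1, Ier2, was lower. Egr1 stood at 758 and 18.1 CPM in Pax6 +/-, with 30.5% of its UMIs in 1 cell.

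Lysosomal and complement genes also followed C1qa. In Pax6 +/-, 7 of 11 lysosome genes were higher with C1qa and 0 lower, and the protease genes Ctsb and Lgmn stood at 1920 against 334 and 1432 against 217 CPM. The anaphylatoxin receptor C3ar1 stood at 505 CPM with C1qa and in 1 of 15 cells without it, at 9.03 CPM. Trem2, a lipid-sensing receptor that signals through the Tyrobp adaptor, was in 42 of 65 and 1 of 15 cells. The plot of both groups shows these genes above the diagonal, and the class II genes Cd74 and H2-Aa close to it.

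**Figure D2:**
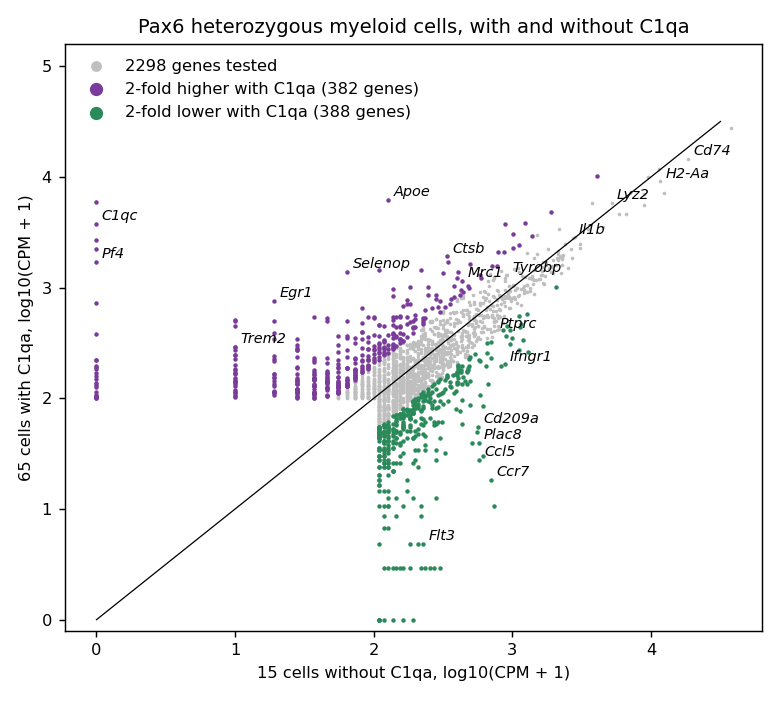
Levels of 2298 genes in the Pax6 heterozygous myeloid cells with C1qa (vertical axis, 65 cells) and without it (horizontal axis, 15 cells), each as log10 of CPM after adding 1. Coloured genes are at least 2-fold apart, genes under 100 CPM in both groups are not drawn, and the line marks equal levels. Apoe, Selenop and Egr1 lie above the line, Ccr7, Cd209a and Plac8 below it, and Cd74 and H2-Aa close to it.

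The main class II genes were less than 2-fold apart across the split in Pax6 +/-. Cd74 stood at 14598 CPM with C1qa and 18491 CPM without (ratio 0.789, 0.752 to 0.829), and H2-Aa at 9138 and 11608 CPM. In wild type Cd74 stood at 5904 and 17707 CPM, and 2 of the 6 C1qa-negative cells held 357 of its 358 UMIs there. Over both libraries, 55 cells held C1qa and at least 5 class II UMIs, 14 held class II without C1qa, and 23 held no UMI of H2-Aa, H2-Ab1 or H2-Eb1.

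Several dendritic genes were lower with C1qa. In Pax6 +/-, 4 of 5 tested genes of the conventional dendritic list were lower and 1, Id2, was higher. Of the mature migratory list 5 of 6 were lower. The lists of dendritic subtypes were mixed: of the type 2 list 2 of 6 were lower and 1, Itgam, higher (median log2 ratio 0.049), and of the type 1 list 0 of 2 were past 2-fold. In wild type 5 of 7 of the type 2 list were lower, and the only mature migratory gene tested, Relb, was higher. Flt3, the receptor that sustains dendritic cells, was in 1 of 65 and 5 of 15 cells, and their factor Zbtb46 in 7 of 65 and 5 of 15. Cd209a, a DC-SIGN family lectin, was in 7 of 65 cells at 54.0 CPM and 7 of 15 at 560 CPM (ratio 0.0964, 0.0594 to 0.153). Ccr7 was in 3 of 65 and 5 of 15 cells, at 17.4 and 705 CPM. Of the 15 cells, 1 held 39 Ccr7 UMIs and another 33, and the rest held at most 3 each. Fscn1, Ccl22 and Ccl17, other genes of mature dendritic cells, each came from 1 of the 15 cells. Ccl22 and Ccl17 came from the cell with 33 Ccr7 UMIs and Fscn1 from the cell with 39. The monocyte genes Plac8, Ccr2 and Vcan were lower with C1qa in 3 of 3 tested, with Plac8 at 38.6 and 569 CPM. Plac8 was in 6 of the 15 cells, of which 1 held 34 UMIs and the next 17. The cell with 34 held Flt3 and no Ccr2. In wild type, Cd209a was in 0 of 15 and 2 of 6 cells. Genes of the T, NK and innate lymphoid list summed to 243 CPM with C1qa and 614 CPM without it in Pax6 +/-. Nkg7, a granule gene of cytotoxic lymphocytes, was in 0 of 65 and 3 of 15 cells, and Camk4, a calcium-dependent kinase, in 1 and 3. Of the 15 cells, 2 held no UMI of H2-Aa, H2-Ab1 or H2-Eb1.

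The remaining 4 C1qa-negative wild-type cells held S100a8 or S100a9, the calprotectin genes of neutrophils. S100a9 stood at 2374 CPM in the 6 cells and S100a8 at 1187 CPM, and both were at 0 UMIs in all 80 Pax6 +/- myeloid cells. These 4 cells held no class II UMI. The interleukin-1 decoy receptor Il1r2 was in 6 of 6 and 1 of 15 wild-type cells. A count of 0 allows up to 3 of the 629403 non-mitochondrial UMIs of the Pax6 +/- myeloid cells.

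Clustering of the 101 cells of both libraries gave 4 clusters at Leiden resolution 0.6, 3 at 0.3 and 7 at 1.0. Genes that define a cluster come from the same cells, so the following values are descriptions. Cluster 1 (39 cells, 1 wild type) was macrophage-like: 13 of 15 macrophage markers were at least 1.5-fold above the other members, and C1qa was in 38 cells. It held Apoe at 8743 CPM, Pf4 at 2351 CPM and Adgre1 at 745 CPM. Lpar1, a receptor for lysophosphatidic acid, and P2rx7, an ATP-gated channel, stood at 699 and 706 CPM. The libraries were not aligned before clustering, and clusters 1 and 3 largely followed the library. Of the 39 cells of cluster 1, 38 were Pax6 +/-, and of the 18 of cluster 3, 13 were wild type. Lpar1 was found in no wild-type myeloid cell, so it cannot be told apart from a difference between the libraries. Mural markers were also higher in cluster 1, at 410 against 27.8 CPM in sum, and its leading gene Timp3 came from 2 of the 39 cells. Its 1 wild-type cell lacked C1qa and held S100a8 and S100a9.

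Cluster 2 (30 cells, 4 wild type) was dendritic-like, with 12 of 16 dendritic markers at least 1.5-fold higher and C1qa in 12 cells. Cd209a was in 13 cells, Ccr7 in 7 and Flt3 in 8. S100a4 stood at 846 CPM, Il1r2 at 604 CPM and the monocyte receptor Ccr2 at 393 CPM, and 5 of 8 monocyte markers were higher too. So were 4 of 10 T or NK markers (522 against 150 CPM in sum) and the neutrophil genes S100a8 and S100a9. Of its 4 wild-type cells, 3 held at least 1 of these 2 genes, and 1 of the 3 held only 1 S100a9 UMI. Cluster 3 (18 cells, 13 wild type, C1qa in 17) was led by epithelial transcripts, with Krt12 at 2433 CPM, and is left unnamed. It otherwise held macrophage genes, with Mrc1 at 2497 CPM, F13a1 at 684 CPM and Apoe at 7005 CPM.

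**Figure D3:**
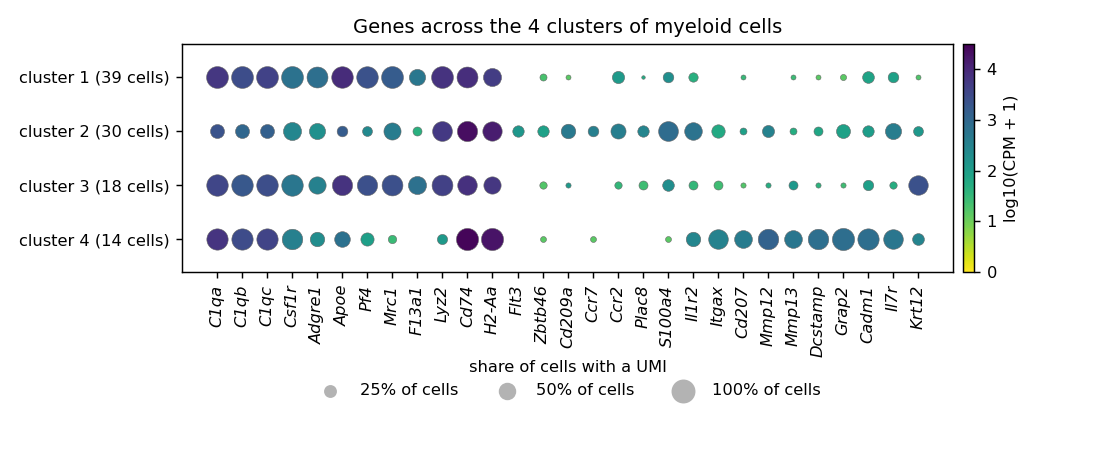
Genes (columns) in the 4 clusters of myeloid cells (rows): the colour is log10 of CPM after adding 1 and the area of a circle is the share of cells with a UMI. Clusters 1 and 3 hold C1q, Apoe, Pf4 and Mrc1, cluster 2 holds Flt3, Cd209a and Ccr7, and cluster 4 holds C1q and class II with Cd207, Mmp12, Mmp13, Dcstamp and Grap2 but little Lyz2 or Mrc1.

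Cluster 4 (14 cells, 3 wild type and 11 Pax6 +/-) combined C1q and class II with Itgax of the dendritic list and genes outside the macrophage and dendritic lists. C1qa was in 13 of its cells at 6650 CPM, and Cd74 and H2-Aa were in all 14 at 27915 and 18001 CPM, above the 8236 and 5105 CPM of cluster 1. Lyz2 was in 3 of 14 cells at 121 CPM, against 38 of 39 at 6834 CPM in cluster 1. Mrc1 stood at 26.9 CPM and F13a1 at 0 UMIs. The following genes were picked after their values were seen. Cd207 was in 9 of 14 cells at 416 CPM, and in 6 of the other 87 myeloid cells. Mmp12, the macrophage elastase, stood at 1249 CPM in 12 cells and the collagenase Mmp13 at 537 CPM in 9 cells. Dcstamp, a fusion receptor of osteoclasts and dendritic cells, stood at 752 CPM, the adaptor Grap2 at 779 CPM in all 14 cells, and the integrin Itgax (CD11c) at 322 CPM in 11.

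Both libraries held such cells. In its 3 wild-type cells Cd207, Mmp12 and Mmp13 were all present in 3 of 3, at 449, 2437 and 1026 CPM. In its 11 Pax6 +/- cells they were in 6, 9 and 6, at 408, 935 and 408 CPM. Across all myeloid cells Mmp12 was in 4 wild-type cells, which all held Cd207, Mmp13 and C1qa and no Lyz2, and in 18 Pax6 +/- cells, of which 6 held Cd207 and 7 held Mmp13. The 1 such wild-type cell outside the cluster is the deep cell rich in Krt12. Of the 15 cells with Cd207 in both libraries, 14 held C1qa. Epcam and Mfge8, other Langerhans markers, were in 1 and 0 of the 14 cells, so no Langerhans name is given. Flt3 was in 0 of 14 cells, and Il7r in 11.

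Between the genotypes, no gene of the macrophage core was past 2-fold, while 6 of 14 chemokine genes were lower and 5 of 7 chemokine receptor genes higher. Of 2250 genes tested, 283 (12.6% of those tested) were at least 2-fold higher in Pax6 +/- and 325 (14.4%) at least 2-fold lower, and 263 and 322 of these had a 95% counting interval of the ratio (exact conditional binomial) that excluded 1. The split depends on the scaling: with TMM factors there were 393 higher and 261 lower, and with DESeq2 size factors 368 and 269. The median log2 ratio over all genes tested was 0.02, 0.20 and 0.18 in turn. Single cells again weigh on the lower calls, which numbered 108 when, for each gene, the cell with most of its UMIs in the higher library was left out. 97 of the higher and 126 of the lower genes were also at least 4-fold above the other non-epithelial cells of their own library. The other non-epithelial cells, compared in the same way, gave 351 genes higher (16.1%) and 142 lower (6.51%), and 95 and 56 of the myeloid calls were past 2-fold the same way there.

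RNA composition also differed between the libraries outside the myeloid cells. Gm42418, an annotated gene that overlaps ribosomal RNA sequence, took 54467 CPM of the wild-type and 9846 CPM of the Pax6 +/- myeloid UMIs (5.53-fold lower in Pax6 +/-). In the other non-epithelial cells it stood at 63526 and 13606 CPM. It was chosen after its values were seen, as was Tmsb4x, an actin-binding peptide at 13063 and 29584 CPM (ratio 2.26, and 2.31 in the other cells). The part of these transcripts in the genotype differences was not tested.

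**Figure D4:**
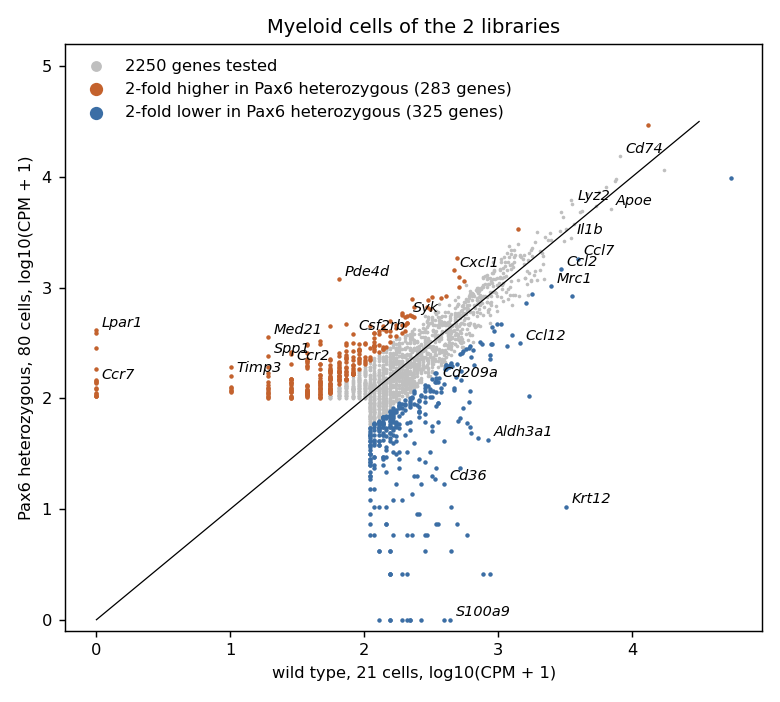
Levels of 2250 genes in Pax6 heterozygous (vertical axis, 80 cells) and wild-type (horizontal axis, 21 cells) myeloid cells, each as log10 of CPM after adding 1. Coloured genes are at least 2-fold apart and the line marks equal levels. Cd74, Lyz2, Apoe and Il1b lie near the line, Pde4d, Lpar1 and Spp1 above it, and Ccl12, Cd36 and Krt12 below it.

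Of the macrophage core, 0 of 11 tested genes were past 2-fold (median log2 ratio 0.25, against 0.02 over all tested). Csf1r stood at 554 CPM in wild type and 470 CPM in Pax6 +/- (ratio 0.849, 0.643 to 1.14) and Adgre1 at 381 and 454 CPM. C1qa was 1.65-fold higher in Pax6 +/- (1.47 to 1.86), and C1qb and C1qc 1.25- and 1.27-fold. Resident-macrophage genes were lower in 3 of 9: Mrc1 stood at 2496 CPM in wild type and 1028 CPM in Pax6 +/- (2.43-fold lower, 2.10 to 2.80), the transglutaminase subunit F13a1 at 617 and 299 CPM and Cbr2 at 409 and 199 CPM. In the C1qa cells alone Mrc1 stood at 2969 and 1155 CPM, and in the C1qa-negative cells its direction turned (log2 ratio 0.13). In the other non-epithelial cells, where endothelium holds it, Mrc1 was 4.38-fold higher in Pax6 +/-.

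Chemokine genes were lower in 6 of 14 tested and higher in 2, with a median log2 ratio of -0.70. Ccl12, a CCR2 ligand, stood at 1452 CPM in wild type and 313 CPM in Pax6 +/- (4.64-fold lower, 3.74 to 5.75). Its neighbours on chromosome 11 followed: Ccl7 was 2.17-fold lower, with 3958 CPM in wild type and 1822 CPM in Pax6 +/-, and Ccl2 was 2.01-fold lower, with 2932 and 1459 CPM. Ccl3 stood at 663 and 197 CPM, and Ccl24, which draws eosinophils, at 318 and 55.6 CPM, where 1 cell carried 62.9% of the wild-type UMIs. Cxcl10, an interferon-induced ligand that draws T cells, stood at 617 and 116 CPM, but 1 cell carried 85.3% of the wild-type UMIs and without that cell its log2 ratio was 0.27. Ccl2 turned to a log2 ratio of 1.21 in the C1qa-negative cells alone. In the other non-epithelial cells Ccl2, Ccl7 and Cxcl10 were 6.33-, 6.67- and 6.35-fold higher in Pax6 +/-, opposite in direction. That pool held 53 mural cells of 816 in wild type and 497 of 1996 in Pax6 +/-. Within mural cells Ccl2 stood at 640 and 2593 CPM, Ccl7 at 108 and 425 CPM and Cxcl10 at 1220 and 1465 CPM, and within keratocytes or fibroblasts Ccl2 stood at 72.0 and 145 CPM. The difference between these directions was not tested.

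Cxcl1, which draws neutrophils, was higher, at 463 CPM in wild type and 1425 CPM in Pax6 +/- (ratio 3.08, 2.32 to 4.17), and stood at 175 and 943 CPM in the other cells. Ccl5 was in 0 wild-type and 8 Pax6 +/- cells. Chemokine receptors were higher in 5 of 7 tested and lower in 0 (median log2 ratio 1.34). Ccr2 stood at 27.2 and 203 CPM, from 3 and 128 UMIs (ratio 7.47, 2.50 to 36.7), in 2 of 21 and 26 of 80 cells. Cxcr4 stood at 118 and 299 CPM (ratio 2.53, 1.44 to 4.84), and Ccrl2, an atypical receptor that binds chemerin, at 200 and 542 CPM (ratio 2.71, 1.76 to 4.39). The log2 ratio of Ccrl2 was -1.23 in the C1qa-negative cells alone. Ccr7 was in 0 wild-type and 8 Pax6 +/- cells. The plot of ratios shows most ligands left of 0 and most receptors right of it.

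**Figure D5:**
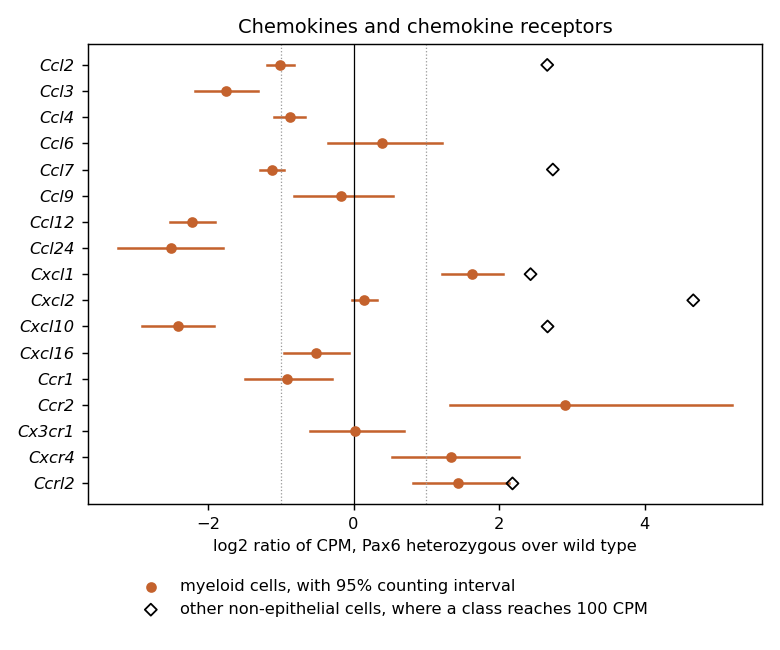
Log2 ratio of CPM, Pax6 heterozygous over wild type, for chemokine genes (upper 12) and receptor genes (lower 5) with UMIs in both libraries. Filled points are myeloid cells with the 95% counting interval, open diamonds are the other non-epithelial cells where a class reaches 100 CPM, and dotted lines mark 2-fold. Ccl2, Ccl7 and Cxcl10 lie left of 0 in myeloid cells and right of 0 in the other cells.

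Single genes of other lists were lower in Pax6 +/-, at list shares near the background or mixed in direction. Of the scavenger and lipid list 2 of 9 tested were lower and 1, Plin2, higher, and of the adaptor and Fc receptor list 1 of 9 was lower and 1 higher. Cd36, a receptor for oxidised lipids and thrombospondin, was in 12 of 21 wild-type cells at 390 CPM and in 9 of 80 Pax6 +/- cells at 15.9 CPM (24.6-fold lower, 12.2 to 54.8), with 18.6% of the wild-type UMIs in its most loaded cell. Fcgr4, an activating IgG receptor, stood at 182 and 22.2 CPM (8.16-fold lower, 3.92 to 17.5). Igf1, a growth factor of resident macrophages, stood at 172 and 44.5 CPM (3.88-fold lower, 2.05 to 7.19). The cytokine Il1a stood at 318 and 102 CPM. Syk, the kinase downstream of Fcer1g and Tyrobp, went the other way at 209 and 553 CPM (ratio 2.65, 1.74 to 4.23).

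Several growth factor and cytokine genes were higher in Pax6 +/-. Areg, which encodes the EGF receptor ligand amphiregulin, was in 25 of 80 Pax6 +/- cells at 391 CPM and in 0 wild-type cells. Taking that 0 as 3 UMIs, it was at least 14.4-fold higher. Its most loaded cell carried 26.8% of the UMIs. Spp1, the matrix protein osteopontin, was in 23 of 80 cells at 238 CPM and in 1 wild-type cell at 18.2 CPM (ratio 13.1, 3.57 to 109, from 2 wild-type UMIs). Vegfa, the angiogenic growth factor, stood at 18.2 and 132 CPM (ratio 7.26, 1.95 to 61.0) and Il10, an anti-inflammatory cytokine, at 18.2 and 122 CPM (ratio 6.74, 1.80 to 56.6). Osm, a cytokine of the interleukin-6 family, stood at 127 and 378 CPM (ratio 2.98, 1.74 to 5.53). In the list of repair and growth factors 4 of 9 genes tested were higher and 2 lower. The direction of Vegfa, Thbs1 and Il1rn turned in the C1qa-negative cells alone, where log2 ratios were -0.13, -1.39 and -0.07.

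The highest ratios belonged to genes of several kinds. Gfod1 was in 37 of 80 Pax6 +/- and 1 of 21 wild-type cells, at 192 and 9.08 CPM (ratio 21.2, 3.73 to 843, from 1 wild-type UMI). Med21, a subunit of the Mediator complex, was in 36 and 2 cells, at 354 and 18.2 CPM (ratio 19.5, 5.34 to 162, from 2 wild-type UMIs). Pde4d, a phosphodiesterase that breaks down cyclic AMP, was in 79 of 80 Pax6 +/- and 5 of 21 wild-type cells, at 1182 and 63.5 CPM (ratio 18.6, 8.98 to 46.4). In the other non-epithelial cells it was 3.27-fold higher. Lpar1 was in 42 and 0 cells, at least 15.1-fold higher, while in the other cells its ratio was 0.552. Cd40, the co-stimulatory receptor, was in 35 of 80 and 1 of 21 cells, at 122 and 9.08 CPM (ratio 13.5, 2.35 to 539). Csf2rb, the shared chain of the GM-CSF and interleukin-3 receptors, stood at 81.7 and 380 CPM (ratio 4.65, 2.41 to 10.3). Timp3 came from 2 Pax6 +/- cells and Mgp, at 116 CPM, was at 7066 CPM in the other Pax6 +/- cells. Ypel2, Krt12, Piga and Dsc2 were among the lowest ratios, and the deepest wild-type cell carried 61.8% to 98.8% of the wild-type UMIs of each.

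Class II and class I genes gave few calls. Of 10 tested genes of the class II presentation list, the co-stimulatory receptor gene Cd40 alone was past 2-fold. H2-Aa stood at 7580 and 9573 CPM (ratio 1.26, 1.17 to 1.36). Within C1qa cells the class II difference was larger: Cd74 stood at 5904 CPM in wild type and 14598 CPM in Pax6 +/-, and H2-Aa at 4592 and 9138 CPM. Of 7 class I genes tested, 2 were higher and 0 lower. Psmb9, an immunoproteasome subunit, stood at 36.3 and 187 CPM (ratio 5.16, 1.96 to 19.3), and H2-T23, a non-classical class I gene, at 90.8 and 183 CPM (ratio 2.01, 1.06 to 4.31). Of interferon-response genes, Isg15 and Ifitm3 were higher in 2 of 6 tested, at 63.5 and 170 CPM and at 318 and 828 CPM. Immediate early and dissociation stress genes differed little: 0 of 14 were higher and 1, Hspa1b, was lower, and Fos stood at 1162 and 2040 CPM.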

How the data were processed

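Single-cell suspensions were profiled with 10x Genomics chemistry in 2 libraries, 1 per genotype. The deposited matrices hold whole-number UMI counts per gene and barcode, not normalized. Cell Ranger 8.0.0 is named in the file headers, and GRCm38 in the submitters' processing notes. Of 21928 deposited barcodes, 19696 passed the quality limits. Member libraries summed to 112037 and 639968 UMIs, and low counts limit precision most in wild type.

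Counts were summed per library and class and given as CPM without mitochondrial genes. With 1 library per genotype no test was run. Genes were called at 4-fold against other non-epithelial cells and at 2-fold otherwise, with at least 100 CPM in either group, and a group at 0 was set to 3 UMIs for the ratio. Intervals are 95%: an exact binomial interval conditional on the summed UMIs gave those of ratios, and Clopper-Pearson those of shares. Other non-epithelial cells were classed by at least 5 UMIs and 10 per 10000 UMIs of class markers, or by the stromal limit. They also had to lie under the keratin limit and under 100 Krt12 UMIs per 10000, and to hold no Epcam UMI. The Krt12 and Epcam limits were not set on myeloid cells. Clusters came from scanpy 1.11.5 (1000 variable genes, 15 components, 10 neighbours, Leiden), under Python 3.11.15. Scaling alternatives used edgeR 4.0.16 and DESeq2 1.42.0 for factors only. The ratio code was tested on simulated data.

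Genes named are those of the rule, the 12 highest and 8 lowest called ratios of each comparison, and from each list the called members, or up to 4 of the most abundant where fewer than 3 were called; other named genes were chosen after their values were seen. A few genes that this rule names are not reported here. The members and the gene lists were chosen with earlier results of these data known. Alternatives were quality and rule limits, CPM minimum, scaling, subsets of members and clustering resolution. Promoter sequences are from RefSeq, GRCm38.p6.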

Additional observations from a re-analysis of the deposited data

How the results depend on the processing

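Without the demand for a Ptprc UMI, myeloid cells were 0.404% of wild-type and 1.71% of Pax6 +/- cells. With no CPM minimum, 1333 genes were higher and 711 lower than in other non-epithelial cells in wild type and 1608 and 1797 in Pax6 +/-, 1152 and 1470 across the C1qa split in Pax6 +/-, and 1172 and 1242 between genotypes. At 50 CPM, 836 genes were lower than in other non-epithelial cells in Pax6 +/-, and the split gave 678 and 816. At 200 CPM the genotype counts were 119 and 148. In C1qa-negative cells alone 514 genes were higher in Pax6 +/-. The following were chosen after seeing the data: leaving out the cell with most of a gene's UMIs gave 385 and 185 across the split in wild type, 137 lower in Pax6 +/-, and 108 lower between genotypes; demanding 4-fold over other non-epithelial cells gave 97 and 126; resolution 1.0 gave 7 clusters. Log2 ratios between genotypes that turned in C1qa-negative cells alone were Ccrl2 (-1.23), Ccl2 (1.21), Mrc1 (0.13), Vegfa (-0.13), Thbs1 (-1.39) and Il1rn (-0.074). Thbs1 also turned as a mean over cells (-0.21), Cxcl10 without its most loaded cell (0.27), Cd209a in C1qa cells (0.69, and 0.40 in those under 100 Krt12 UMIs per 10000) and Plac8 in the latter (-0.084). The cause was not tested. No paired analysis was possible because each genotype has 1 library. Of the single-gene values recomputed, 11 turned, counted only for genes called in the main setting. Of the rest, 948 moved by less than 1 on the log2 scale and 142 moved further. Direction was not checked for genes that were not called.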
